A study of Mus musculus with 6 samples.

Results

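Ankrd1, Csrp3, Ccn1 and Ccn2 are genes known for transcripts that respond to stretch and mechanical load, though stretch itself was not measured here. In mouse skeletal muscle after electrical pacing they were read by 13 probes of a spotted array with 2 channels, which were all probes that the platform annotation gave exactly 1 of these 4 symbols. The array held 13872 probes in all, of which 6609 had exactly 1 gene symbol, for 3939 genes. Ankrd1 had 3 of the 13 probes, Csrp3 had 8, and Ccn1 and Ccn2 had 1 each.

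Total RNA came from 6 groups with 1 array each. In 5 groups mice had been paced for 3 h through an implanted pacer, and muscle was taken 0 h, 1 h, 3 h, 8 h or 24 h after pacing ended. The sham group carried a pacer that stayed off, and its muscle was taken at the time of the 0 h group. On every array the sample shared the slide with 1 RNA from control muscle, named Pre. Comparisons of the 1 h, 3 h, 8 h and 24 h groups with sham thus hold both the pacing and the hours that passed after it. The labels give no strain, age, sex, muscle or number of mice behind an RNA. With 1 array a group no difference below has a replicate check, and no p-value was computed. Values are log2 ratios, read as sample over Pre. That direction is likely, since Pre is labelled as the reference, but which dye each RNA carried is not given, and every direction below rests on it. Ratios hold no signal levels, so the labelled tissue could not be checked by the level of its markers. In whole muscle, fewer cells of a type and less RNA per cell cannot be told apart. Between 87.3% and 95.2% of probes were measured on an array, and the robust standard deviation (SD) of the log2 ratios ran from 0.176 at 1 h to 0.495 in sham. The sham array, the most spread of the 6 by that measure, enters every comparison with sham. Of the 78 member values, 72 were measured and 6, all of Csrp3, were exact zeros and treated as missing.

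Striated muscle reads load partly at the Z-disc and along titin, the giant elastic protein of the sarcomere. Ankrd1 encodes a muscle ankyrin repeat protein that binds titin and also acts in the nucleus as a cofactor of transcription, and Csrp3 encodes muscle LIM protein, a Z-disc and nuclear protein. Ccn1 and Ccn2 encode secreted matricellular proteins that bind integrins, and with Ankrd1 they are widely used readouts of the co-activators YAP and TAZ, which reach DNA through TEAD factors.

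The promoters of the members are shown because Ankrd1, Ccn1 and Ccn2 share that readout while their values on the arrays differ. The sequences are the 250 bases before the RefSeq start (RefSeq promoter table, GRCm38.p6), 5′ to 3′ on the gene's strand. Capitals mark GGAATG, the core of the TEAD motif, on either strand (read as CATTCC on the other). The table matched 3 of the 4 members, and Ccn2 is named only. Ankrd1 lies at chr19:36119845-36120094 on the minus strand, Ccn1 at chr3:145649986-145650235 on the minus strand, and the first Csrp3 promoter at chr7:48848052-48848301 on the minus strand.
Ankrd1: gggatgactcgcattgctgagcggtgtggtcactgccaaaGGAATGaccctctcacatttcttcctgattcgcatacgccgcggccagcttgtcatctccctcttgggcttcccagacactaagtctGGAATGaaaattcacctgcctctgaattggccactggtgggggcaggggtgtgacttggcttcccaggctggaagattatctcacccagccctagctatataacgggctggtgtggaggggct
Ccn1: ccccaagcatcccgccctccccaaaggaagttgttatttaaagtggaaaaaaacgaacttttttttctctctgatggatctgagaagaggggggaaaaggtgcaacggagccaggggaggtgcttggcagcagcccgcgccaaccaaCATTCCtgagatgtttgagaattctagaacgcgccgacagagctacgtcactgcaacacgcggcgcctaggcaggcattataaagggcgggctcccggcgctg
Csrp3: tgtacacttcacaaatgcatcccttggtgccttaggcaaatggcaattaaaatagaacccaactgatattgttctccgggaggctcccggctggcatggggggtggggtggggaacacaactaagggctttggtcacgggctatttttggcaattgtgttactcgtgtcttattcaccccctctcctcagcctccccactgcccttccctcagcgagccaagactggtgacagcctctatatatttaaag

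The Ankrd1 promoter held GGAATG in 2 places, the first beginning 210 bases and the second 123 bases before the start. The Ccn1 promoter held it once, on the other strand, 103 bases before the start, and neither of the 2 Csrp3 promoters in the table held it. Among 32851 mouse promoters of the same length, 12.6% held the motif and 1.02% held it in at least 2 places. CANNTG, the E-box bound by myogenic factors, occurred once in the Ankrd1 promoter, 4 times in each Csrp3 promoter and not in that of Ccn1, against 66.2% of all promoters with a match. The CArG box, the site of serum response factor, occurred in none of these 4 sequences and in 1.47% of all promoters. The motifs were searched on both strands and do not overlap one another in letters. A match describes the letters only.

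Ankrd1 gave the largest values of the 4 genes, but on 2 of its 3 probes. At 24 h after pacing those probes stood 23.6-fold and 17.1-fold above sham, and the remaining probe 1.30-fold. Probes annotated to a GenBank record other than a RefSeq transcript are called EST probes here, after expressed sequence tags (single-read cDNAs). The type of each such record was not checked. Probe 4174, an EST probe, had log2 ratios to Pre of -0.41 in sham, 0.71 at 0 h, 0.15 at 1 h, 0.57 at 3 h, then 2.06 at 8 h and 4.15 at 24 h. Probe 8722, another EST probe, had -0.16 in sham, 0.97 at 0 h, 0.20 at 1 h, 1.69 at 3 h, then 2.26 at 8 h and 3.94 at 24 h. Probe 102, annotated to the RefSeq transcript, had 0.51 in sham, 0.16 at 0 h, 0.11 at 1 h, 0.62 at 3 h, then 0.24 at 8 h and 0.89 at 24 h. On both EST probes sham was the lowest array, 1 h the next, 8 h the second highest and 24 h the highest, and only 0 h and 3 h traded places. On probe 102 sham stood above 0 h, 1 h and 8 h, although 24 h was the highest array there too.

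**Figure D1:**
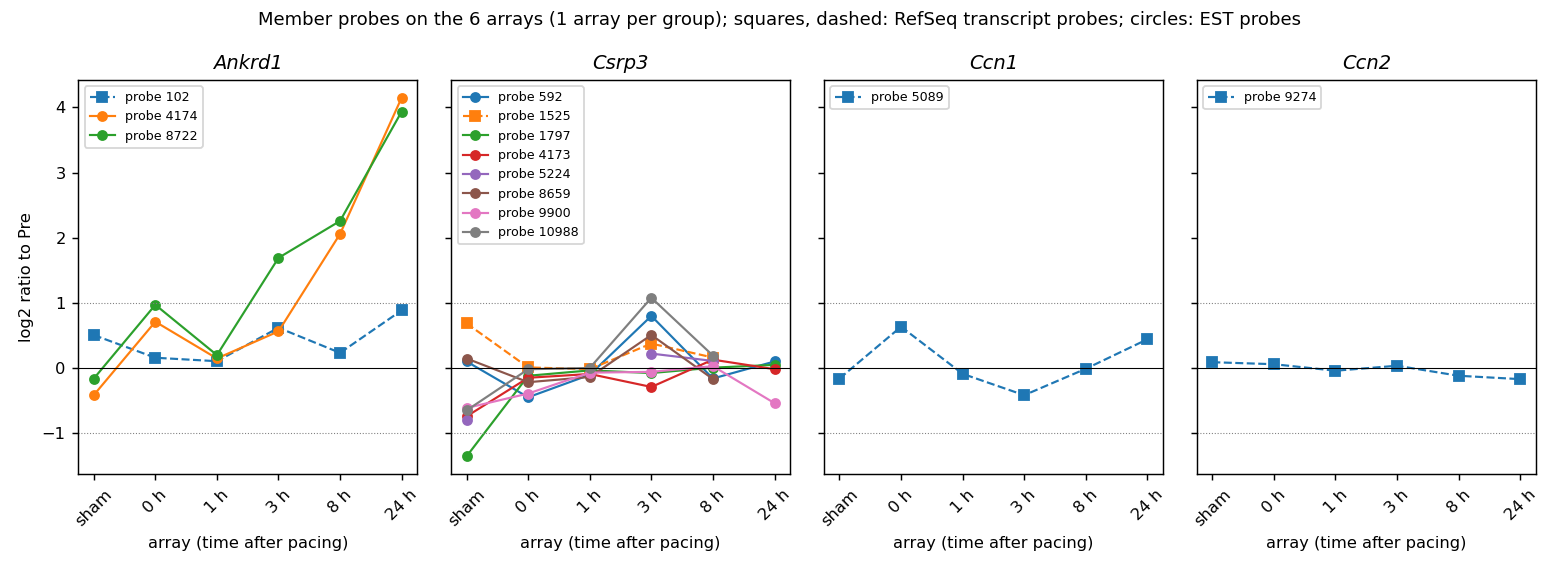
Log2 ratio to Pre (vertical axis, shared by the panels) on the arrays in time order, sham first, for the 13 probes of Ankrd1, Csrp3, Ccn1 and Ccn2. Squares with dashed lines are probes of RefSeq transcripts, circles with solid lines are EST probes, a broken line marks a missing value, and dotted lines mark 2-fold. The 2 Ankrd1 EST probes reach 3.94 and 4.15 at 24 h, Csrp3 spreads most in sham, and Ccn2 stays within 0.26 log2 units.

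On the Ankrd1 EST probes the difference from sham was larger at 0 h than at 1 h, and largest at 24 h. Their mean difference from sham was 1.13 at 0 h (probe SD 0.0043, 2 probes), 0.46 at 1 h (SD 0.14), 1.42 at 3 h (SD 0.62), 2.45 at 8 h (SD 0.039) and 4.33 at 24 h (SD 0.33). The SD is the spread between 2 spots that share each array's RNA, not between mice. At 0 h both probes were thus about as far above sham, 2.18-fold and 2.19-fold, and at 1 h both were lower than at 0 h, by a mean log2 difference of -0.67 (SD 0.15). The probes parted at 3 h, where the gap between them was 0.87 log2 units against sham and 1.13 against Pre. They stood closer again at 8 h and 24 h, with gaps of 0.055 and 0.47 against sham. Measured against Pre in place of sham, the mean was 0.84 at 0 h (SD 0.18), 0.18 at 1 h (SD 0.037), 1.13 at 3 h (SD 0.80), 2.16 at 8 h (SD 0.14) and 4.04 at 24 h (SD 0.15), or 16.5-fold at 24 h. Sham lay a little below Pre on both (-0.41 and -0.16), so the difference at 0 h reached 2-fold from sham but not from Pre.

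The step from 8 h to 24 h was 2.09 on probe 4174 and 1.68 on probe 8722. When the arrays were scaled to a common robust SD, these steps were 0.63 and 0.17, and neither reached 2-fold. The 24 h differences from sham stayed at 3.83 and 3.48 under that scaling, and the 8 h differences at 3.20 and 3.30. The place of 24 h far above 8 h thus depended on how the arrays were scaled, while the distance of both times from sham exceeded 2-fold either way.

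Among all probes with exactly 1 symbol, the Ankrd1 EST probes ranked 4 and 5 of 6239 by difference from sham at 8 h, and 2 and 3 of 5771 at 24 h. Against Pre at 24 h they ranked 2 and 4 of 5932. Of 4819 probes measured on all arrays, their ranges over the arrays ranked 2 and 3 from the widest, at 4.56 and 4.10, whereas probe 102 ranked 1795 with a range of 0.78. The widest was probe 7496 of Ldhb, a subunit of lactate dehydrogenase, with 4.97 at 24 h against Pre. The 5 other Ldhb probes measured at 24 h lay between -0.89 and 0.39 there, so that probe, too, parted from the rest of its gene.

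**Figure D2:**
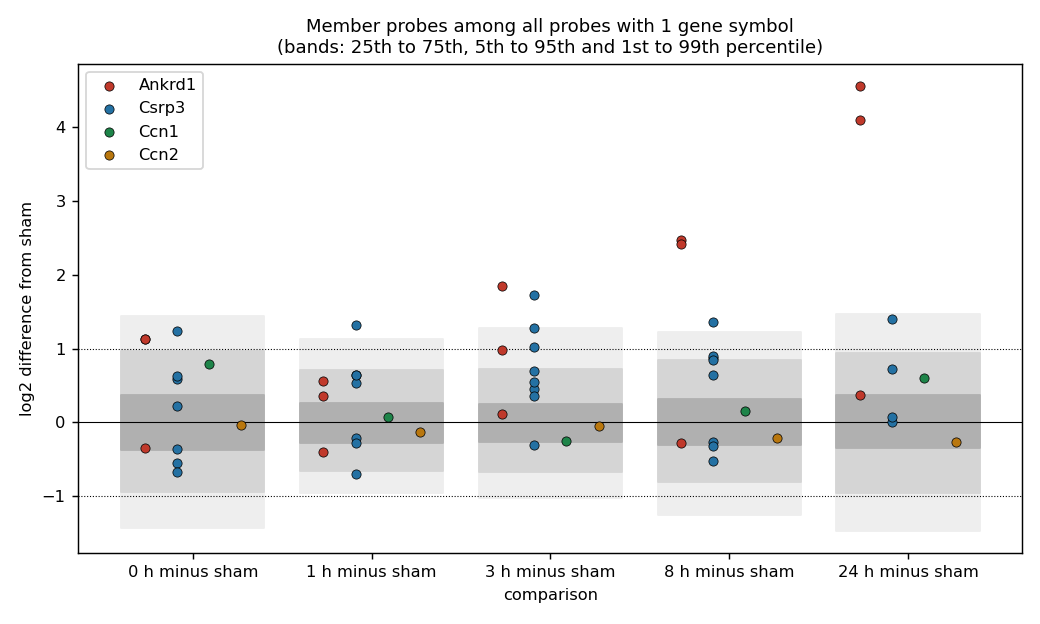
Log2 difference from sham (vertical axis) of every measured member probe at each time, coloured by gene, over grey bands for all probes with exactly 1 symbol (25th to 75th, 5th to 95th and 1st to 99th percentile). Dotted lines mark 2-fold. The 2 Ankrd1 EST probes lie far above the widest band at 8 h and 24 h, while Ccn2 lies inside the middle band at every time.

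The disagreement inside Ankrd1 was set beside other genes. Over the arrays, the root mean square difference was 0.50 between the 2 EST probes, 1.59 between probes 102 and 4174, and 1.62 between probes 102 and 8722. At 24 h against sham the SD of the 3 Ankrd1 probes was 2.29, against a median of 0.345 and a 90th percentile of 0.806 over 973 genes with several probes. The mean over the 3 probes (3.01) therefore lay far from each of them, while their median (4.10) is the value of probe 8722. The array held 1459 probes with 1 symbol annotated to RefSeq transcripts and 5150 annotated to other records, and 338 genes had both kinds measured at 24 h. The median absolute gap between the kinds was 0.279 against Pre in those genes, and the gap of 3.16 in Ankrd1 was the widest. Of 30 genes at least 2-fold above Pre by the other records, 9 were so by the RefSeq probes too, and 22 lay above Pre by them. At 8 h the gap of Ankrd1 ranked 3 of 379 genes against Pre, with 1.92, and 1 of 369 against sham, with 2.72. At 1 h it ranked 266 of 370 against Pre, where all 3 probes lay between 0.11 and 0.20, and 36 of 361 against sham, with 0.86.

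**Figure D3:**
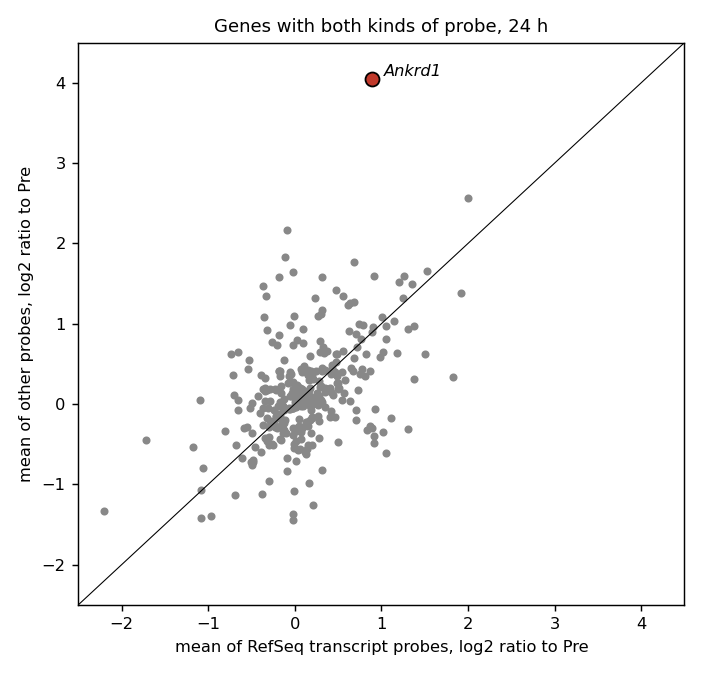
Genes with both kinds of probe measured at 24 h, as the mean log2 ratio to Pre of probes annotated to RefSeq transcripts (horizontal axis) and of all other probes (vertical axis), 1 grey point per gene, with the line of equality. Ankrd1, in red, lies at 0.89 and 4.04, farther from the line than any other gene.

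Of the spots within 2 places of the Ankrd1 EST probes in ID order, those near probe 4174 were not high at 24 h and some near probe 8722 were. Beside probe 4174, the Csrp3 probe 4173 had -0.01 and the unnamed probe 4175 had -0.70 against Pre at 24 h. Near probe 8722, probe 8721 of Cox4i1 had 0.07 while probe 8724 had 1.02 and probe 8720 had 2.25. Probes 4172, 4176 and 8723 were not measured at 24 h. Which clone each spot holds was not tested, and cDNA spots can bind transcripts of close relatives.

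Csrp3 showed no shared course over its 8 probes. Its probes disagreed most in sham, where the log2 ratio to Pre was -1.35 on probe 1797, -0.79 on 5224, -0.74 on 4173, -0.65 on 10988, -0.61 on 9900, 0.10 on 592, 0.15 on 8659 and 0.69 on 1525. The last is the RefSeq probe and the others are EST probes. Sham thus lay below Pre on 5 probes and above it on 3, with a mean of -0.40 and a probe SD of 0.66, against a median probe SD of 0.328 over all genes with several probes. Probe 1797 had the lowest sham value of Csrp3, ranked 27 from the lowest of 6345 probes.

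After pacing the mean of the Csrp3 probes was farthest from Pre at 3 h. Their mean log2 ratio was -0.19 at 0 h (probe SD 0.18, 7 probes), -0.06 at 1 h (SD 0.050, 7 probes), 0.32 at 3 h (SD 0.47, 8 probes), 0.04 at 8 h (SD 0.14, 8 probes) and -0.10 at 24 h (SD 0.30, 4 probes). The 3 h array was the most spread of the paced arrays (robust SD 0.445). At 24 h probes 1525, 5224, 8659 and 10988 were missing, so the 3 h and 24 h means rest on different sets of probes. At 3 h the values ran from -0.29 on probe 4173 to 1.08 on probe 10988, with 5 probes above Pre. The 3 highest there, 10988, 592 (0.80) and 8659 (0.51), were each lower at 8 h, at 0.19, -0.16 and -0.17. On probes 1797, 4173 and 9900 no such peak was seen, and 3 h lay at -0.07, -0.29 and -0.06. Probe 9900 was at -0.39 at 0 h and -0.54 at 24 h, and probe 592 at -0.45 at 0 h.

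Against sham, Csrp3 differences carried the spread of that array. Probe 1797 stood 1.24 log2 units above sham at 0 h, 1.32 at 1 h, 1.28 at 3 h, then 1.36 at 8 h and 1.40 at 24 h, yet against Pre it lay between -0.12 and 0.05 at all of these times. The RefSeq probe 1525 lay below sham at every time at which it was measured, at -0.68 at 0 h, -0.70 at 1 h, -0.31 at 3 h and then -0.52 at 8 h. With arrays scaled to a common robust SD, probe 1797 was no longer 2-fold from sham at any time (0.80 at 0 h). Probe 10988 stood at 1.73 above sham at 3 h and at 1.28 under that scaling, and probe 5224 at 1.02 and 0.72.

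Ccn1 was highest at 0 h. Its single probe, 5089, annotated to the RefSeq transcript, had log2 ratios to Pre of -0.16 in sham, 0.64 at 0 h, -0.09 at 1 h, -0.41 at 3 h, then -0.01 at 8 h and 0.44 at 24 h. The difference from sham was 0.80 at 0 h, or 1.74-fold, which ranked 482 of 5780 probes and missed 2-fold. At 1 h it was 0.72 lower than at 0 h on the log2 scale, rank 99 from the lowest of 5678. The next highest value, at 24 h, was 0.60 above sham, rank 784 of 5771. Ccn1 and the Ankrd1 EST probes thus had in common a higher value at 0 h than at 1 h, but at 3 h Ccn1 had its lowest value of all arrays.

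Ccn2 hardly varied. Probe 9274, annotated to the RefSeq transcript, had 0.09 in sham, 0.06 at 0 h, -0.04 at 1 h, 0.04 at 3 h, then -0.12 at 8 h and -0.17 at 24 h. Its differences from sham ran from -0.03 at 0 h to -0.26 at 24 h, all on the lower side. The range of 0.26 over the arrays was among the narrowest, rank 257 from the narrowest of 4819 probes. With 1 probe each, neither Ccn1 nor Ccn2 has a second spot to check it.

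Counted at 2-fold, all calls among the members fell on Ankrd1 and Csrp3 probes. Against sham, 3 of 12 measured member probes were higher at 0 h (background over all probes with 1 symbol, 4.62%), 1 of 12 at 1 h (1.55%), 4 of 13 at 3 h (2.32%), 3 of 13 at 8 h (2.58%) and 3 of 9 at 24 h (4.25%). None was lower at any time, where the background was 4.08% at 0 h, 0.782% at 1 h and 1.10% at 3 h, and 2.74% at 8 h and 4.47% at 24 h. Probe 1797 of Csrp3 was 1 of these at every time, and the Ankrd1 EST probes made up the rest at 0 h, 8 h and 24 h. At 3 h the others were probe 8722 of Ankrd1 and probes 5224 and 10988 of Csrp3. Against Pre, none of 12 was 2-fold higher at 0 h (1.83%) or at 1 h (0.826%), and 2 of 13 were at 3 h (3.60%), 2 of 13 at 8 h (2.02%) and 2 of 9 at 24 h (4.99%). The sham array had 1 of 13 lower than Pre, probe 1797 (2.57%). Probe 8722 of Ankrd1 and probe 10988 of Csrp3 were 2-fold above both sham and Pre at 3 h (1.03%), though probe 10988 was at 0.83 against Pre with arrays scaled, and both Ankrd1 EST probes were at 8 h (0.529%) and 24 h (1.96%). Between successive paced arrays, no member was 2-fold higher at 1 h than at 0 h (0.616%), 2 of 12 were at 3 h over 1 h (0.842%), 1 of 13 at 8 h over 3 h (1.96%) and 2 of 9 at 24 h over 8 h (1.00%).

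Probes of other genes were ranked by likeness to each member, as the root mean square difference of the log2 ratio over the 6 arrays, among probes measured on all of them. Between the 2 Ankrd1 EST probes that difference was 0.50. The nearest to 4174 was probe 1798 of Myl12b, a regulatory light chain of non-muscle myosin, at 0.75, and the nearest to 8722 was probe 10200 of the same gene, at 0.59. The 5 nearest to 4174 were 3 Myl12b probes, probe 988 of the chaperone gene Hsp90aa1 and probe 586 of Rprd1b. Those nearest to 8722 held 2 of the same Myl12b probes, Rprd1b, the Ldhb probe 7496 and probe 1207 of Hspb7, a small heat shock protein of muscle. Probe 10200 of Myl12b had 0.57 in sham, 1.21 at 0 h, 0.69 at 1 h, 1.53 at 3 h, then 1.38 at 8 h and 3.27 at 24 h. Myl12b was divided too, with probes 578 and 11024 at 0.68 and -0.14 against Pre at 24 h, and a mean of 1.65 above sham over 5 probes (probe SD 1.29). Hspb7 averaged 1.64 above sham at 24 h over 5 probes (probe SD 0.90).

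Probe 102 of Ankrd1 had far nearer neighbours, with Ran, a GTPase of nuclear transport, at 0.065, then Serbp1, Myh7 (slow myosin heavy chain), Ube2j2 and Hspa5 (a chaperone of the endoplasmic reticulum). Nearest to Ccn1 was Rrs1 at 0.16, then Nomo1, Skp1, Bola3 and Eif4b. Nearest to Ccn2 was Rps19bp1 at 0.041, then Bmpr2 (a receptor for bone morphogenetic proteins), Gm5088, Pnkd and Psma5. For Csrp3 the nearest to probe 592 was Rpn1 (0.094), then Rab3a, Taok1, Galt and Chrne, and the nearest to probe 1797 was Jag1 (0.20), then Dgcr6, Ttn, Tnni3 and Acaca. The nearest to probe 4173 was Abcb10 (0.081), then Ifnar2, Card19, Vdac2 and Dgcr6, and the nearest to probe 9900 was Iqsec2 (0.13), then Dapk3, Sec24c, Bloc1s5 and Tspan2. Flat profiles lie near many others, so a small value says little by itself. Ranking by Pearson correlation among only the probes whose range over the arrays was at least 1 log2 unit kept at most 2 of the 5 for any probe, and which of these 2 changes did so was not tested.

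Genes around the members in the sarcomere were mostly within 2-fold of sham and Pre, as were most genes on the array. Of 34 listed genes for stretch sensing at titin and the Z-disc, 28 were on the array and 27 were measured at 24 h and in sham, with the value of a gene as the mean of its probes. At 24 h none was 2-fold above sham and 1 was 2-fold below, against 2.95% and 2.84% of all genes, and the median difference was 0.04, against 0.08 over all genes. The exception was Tcap, telethonin, which caps titin at the Z-disc. It stood 1.61 log2 units below sham (probe SD 0.27, 4 probes, all 2-fold lower) and 1.21 below Pre. Myoz1, a Z-disc binder of calcineurin, was at -0.97 (SD 0.22, 11 probes, 5 of them 2-fold lower). Against Pre it was at -0.58, with 1 probe 2-fold lower, and sham lay above Pre on all 11 probes (mean 0.39). The highest was Ankrd23, of the same ankyrin repeat family as Ankrd1, at 0.90 above sham (SD 0.37), with all 13 measured probes above sham and 7 of them 2-fold, and 0.88 above Pre. Before 24 h Ankrd23 lay at -0.24, -0.13, -0.16 and -0.01 from sham at 0 h, 1 h, 3 h and 8 h. Bag3, a co-chaperone in the turnover of damaged filamin, was at 0.57, 0.31, 0.90, 0.79 and 0.57 above sham from 0 h to 24 h. Against Pre at 3 h, 2 of 27 genes were 2-fold higher (2.87% of all genes), namely Bag3 at 1.05 (probe SD 0.64, 5 probes) and Flnc, the muscle filamin, at 1.09 (SD 1.47, 3 probes). Against sham at 3 h, Flnc was at 0.67.

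Among 43 listed regulators and targets of YAP, TAZ and serum response factor, 19 were on the array, and 18 of them were measured at 24 h and in sham. None was 2-fold from sham at 24 h, against 2.95% of all genes higher and 2.84% lower, so a count of 0 among 18 genes lies near those shares. The list medians were -0.12 at 0 h, -0.06 at 1 h, 0.04 at 3 h, then 0.0031 at 8 h and 0.14 at 24 h. Over all genes the medians were 0.05, 0.03, 0.02, 0.06 and 0.08 at these times. At 0 h 2 genes were 2-fold higher, against 3.49% of all genes. They were Vgll2, a muscle cofactor of TEAD factors, at 1.27 and Wwtr1, which encodes TAZ, at 1.04. Against Pre at 0 h they lay at 0.29 and 0.46, and in sham they lay at -0.98 and -0.58. None of the 19 listed genes was 2-fold above Pre at 0 h, against 1.4% of all genes. Vgll2 was also 2-fold above sham at 3 h (1.64) and 8 h (1.57), but 0.66 and 0.59 above Pre at those times. Yap1 was 0.07 and Tead1 -0.10 from sham at 24 h, and Ccn4, another gene of the CCN family, was at 0.22. Acta2, smooth muscle actin, was the lowest, 1.04 below sham at 8 h, and 0.50 below Pre. Vgll2, Wwtr1, Yap1, Ccn4 and Acta2 had 1 probe each.

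Of 23 listed receptors and partners of CCN proteins and the TGF-beta pathway, 14 were on the array. At 24 h the list median was -0.13 from sham, against 0.08 over all genes, and 1 of 14 genes was 2-fold higher and 1 lower, against 2.95% and 2.84% of all genes. Itgb1, the integrin subunit beta 1, was 1.10 above sham but 0.59 above Pre. Tgfbr3, a TGF-beta co-receptor, was 1.31 below sham and also 2-fold below Pre. Each had 1 probe.

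**Figure D4:**
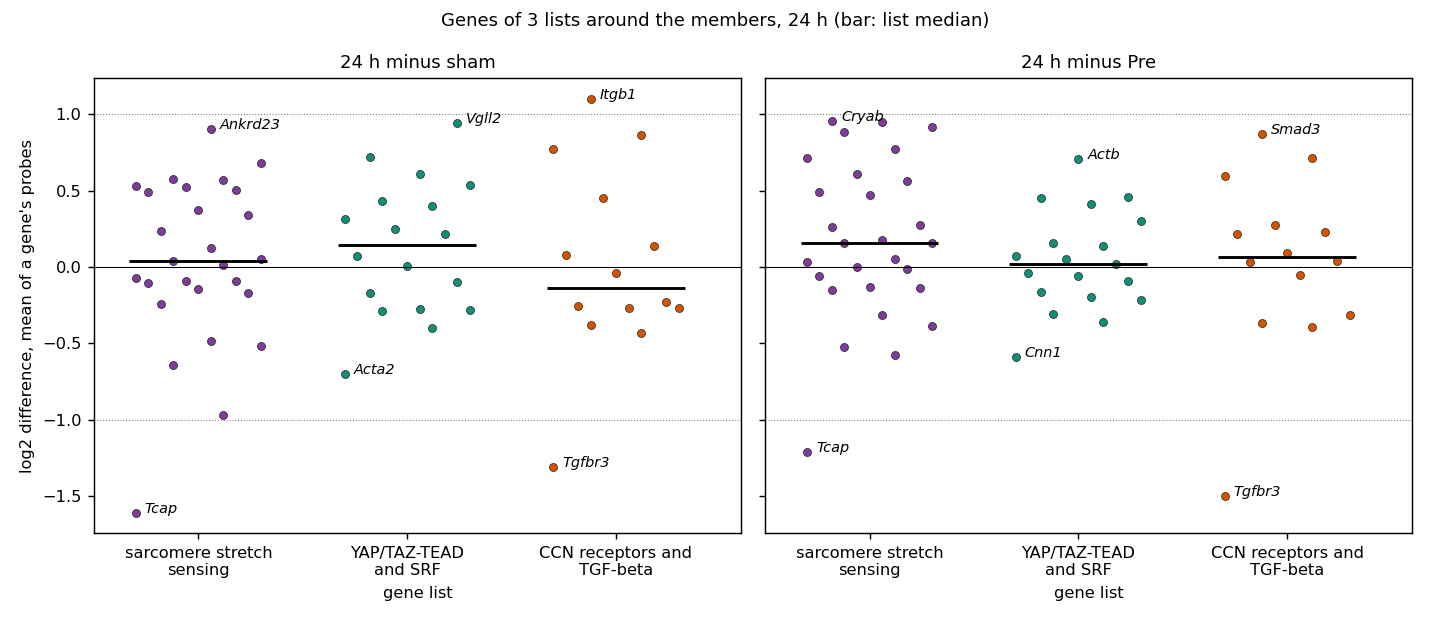
Log2 difference at 24 h from sham (left) and from Pre (right) for the measured genes of 3 lists, 1 point per gene as the mean of its probes, with bars at the list medians. Points are spread sideways for legibility, dotted lines mark 2-fold, and the highest and lowest gene of each list is named. The medians lie between -0.13 and 0.16, and Tcap and Tgfbr3 lie below -1 in both panels.

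Markers of cell types in muscle gave these values beside the members at 24 h against sham. Fibroblast markers, cells that are a known source of CCN proteins, had a median of -0.59 over 4 of 7 listed genes, from -0.91 for Pdgfra to 0.01 for Col1a2. Pdgfra was also 2-fold below both sham (-1.59) and Pre (-1.23) at 3 h, on 1 probe and on the most spread of the paced arrays. Endothelial markers had a median of 0.11 (3 of 6, Tek -0.12, Cdh5 0.16), smooth muscle markers of -0.35 (4 of 6, Actg2 -2.76, Myl9 1.01, which lay at -0.24 and -0.17 against Pre at 24 h and at 2.52 and -1.18 against Pre in sham), immune markers of -0.14 (2 of 8, Ptprc -0.33, Lyz2 0.05) and fibre markers of -0.06 (7 of 9, Mb -0.55, Myh4 0.57). The red cell marker Hba-a1 was at -0.44, and none of 4 satellite cell markers was on the array. Against Pre at 24 h, Pdgfra lay at -0.55, Col1a2 at -0.03, Tek at -0.09, Cdh5 at -0.71 and Mb at -0.32. Ptprc lay at 0.60, Lyz2 at -0.12, Myh4 at -0.10 and Hba-a1 at -0.31. In sham against Pre, Cdh5 lay at -0.87, Ptprc at 0.93 and Myh4 at -0.57. The direction of Col1a2, Cdh5, Myl9, Ptprc, Lyz2 and Myh4 at 24 h thus depended on whether sham or Pre was the reference. At 8 h, when the Ankrd1 EST probes stood at 2.47 and 2.42 above sham, the medians were -0.33 for fibroblast, 0.17 for endothelial, -0.28 for smooth muscle, -0.17 for immune and 0.03 for fibre markers. The lowest and highest at 8 h were Pdgfra (-0.70) and Lum (0.07), Pecam1 (-0.02) and Cdh5 (0.74), Actg2 (-2.59) and Myl9 (0.65), Ptprc (-0.46) and Lyz2 (0.12), and Myh7 (-0.21) and Myh4 (0.33), and Hba-a1 was at -0.12. Against Pre at 8 h, Actg2 lay at -0.07 and Myl9 at -0.53. Pdgfra lay at -0.34 there, Lum at -0.55, Pecam1 at -0.04 and Cdh5 at -0.14. Ptprc lay at 0.47, Lyz2 at -0.04, Myh7 at 0.03, Myh4 at -0.23 and Hba-a1 at 0.01. Pdgfra, Tek, Pecam1, Actg2, Myl9, Ptprc and Lyz2 had 1 probe each. What part a change in cell types plays in the member values was not tested.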

How the data were processed

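Total RNA of mouse skeletal muscle was read on 6 arrays with 2 channels, 1 per group. Per the labels, channel 1 held the sample and channel 2 the control reference Pre. The deposited table gives 1 log10 ratio per probe and array. Its log base was read from 97 cells that hold 9.64e-17, which is what log10 leaves when the ratio exceeds 1 by a single rounding step. The scanner, background correction and normalisation are not given in the sources used here, nor is the depth of signal, and the number of arrays limits the precision.

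The log10 ratios as deposited by the authors were turned into log2, and the median of the measured probes was subtracted per array. Exact zeros, empty cells and values shared within a run of probes were set to missing, as decided after the values had been seen. A difference is the log2 ratio on 1 array minus that on another, called at 2-fold (1 or more in size on the log2 scale). Names came from the platform annotation, in which 284 probes had several symbols and 6979 none, and 6599 of the 6609 probes with 1 symbol were found by Entrez ID in the gene table of GRCm38.p6. The members and gene lists were chosen with earlier results of these data known. Genes were named as members, as the 5 nearest profiles of each member probe measured on all arrays, as list genes 2-fold from both sham and Pre, and as the highest and lowest of each list. Myoz1, Bag3, Flnc, Yap1, Tead1, Ccn4, Vgll2, Wwtr1, Itgb1 and Acta2 at further times, and the spots beside Ankrd1, were named after their values were seen. Alternatives kept zeros, omitted centring, centred each run, scaled arrays to a common robust SD, or moved the threshold to 1.5-fold or 3-fold. The calculation was tested on simulated data with less noise than these arrays and planted changes well above 2-fold. That test checks the arithmetic and says little about calls near 2-fold here. Python 3.11.15, numpy 2.4.6, pandas 2.3.3 and matplotlib 3.10.9 were used.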

Additional observations from a re-analysis of the deposited data

How the results depend on the processing

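Every member difference stayed within the spread taken from probes of 1 gene (the median probe SD of the comparison) when zeros were kept, when arrays were not centred and when each run of probes in ID order was centred, in 177 of 177 probe values for each setting. Those settings could hardly have moved a value that far. Centring removed at most 0.013 log2 units (8 h array), and the runs of member probes had medians up to 0.078 (probe 1525, sham). The smallest median probe SD was 0.132 (1 h against Pre). Cells missing in the main setting were not compared, so these counts are a weak check. Scaling the arrays to a common robust SD moved 30 of 177, and none of the settings turned a called value round. All 45 list medians stayed within that spread under each of the 4 settings. Unscaled, those medians ran only from -0.17 (CCN receptor list, 8 h over 3 h) to 0.16 (YAP and TAZ list, 3 h against Pre). They could scarcely have moved by such a spread, so this count is a weak check too. Under the scaling, counts of member probes at 2-fold, none of them lower, were 2 at each of 0 h, 8 h and 24 h against sham (3 each unscaled). They were 0 for 1 h against sham (1) and 2 for 3 h against sham (4). Against Pre they were 0 for sham (1, lower, unscaled), 1 for 0 h (0) and 1 for 3 h (2). Between paced arrays they were 0 for 3 h over 1 h (2), 2 for 8 h over 3 h (1) and 0 for 24 h over 8 h (2). The remaining counts did not change. At 1.5-fold, with both directions counted, there were 7 at 0 h against sham (6 higher, 1 lower), 4 at 1 h (3 higher, 1 lower), 7 at 8 h and 5 at 24 h (all higher). Against Pre there were 6 for sham (1 higher, 5 lower), and 3 at 0 h and 4 at 3 h (all higher). Between paced arrays there were 2 for 1 h over 0 h (both lower), 4 for 3 h over 1 h (all higher), 4 for 8 h over 3 h (1 higher, 3 lower) and 3 for 24 h over 8 h (all higher). At 3-fold the counts, all of higher probes, were 0 at 0 h, 0 at 1 h and then 2 each at 3 h, 8 h and 24 h against sham. Against Pre they were 0 for sham, 0 h and 1 h, 1 at 3 h, and 2 each at 8 h and 24 h. They were 0 for 1 h over 0 h, for 3 h over 1 h and for 8 h over 3 h, and 2 for 24 h over 8 h. The shares of all probes at 1.5-fold and 3-fold were not computed. The member counts at those thresholds thus have no background beside them and cannot be judged against it. Probe 4174 of Ankrd1 passed 2-fold from sham at 3 h (1.02) only with runs centred. Over all probes with 1 symbol, scaling changed the number 2-fold above sham to 200 at 0 h (267 unscaled) and 152 at 1 h (93). It was 51 at 3 h (135), 177 at 8 h (161) and 123 at 24 h (245). Above Pre the number changed to 166 at 0 h (109), 224 at 1 h (51), 103 at 3 h (215), then 236 at 8 h (130) and 187 at 24 h (296). For sham against Pre 23 were lower (163), and for 1 h over 0 h 121 were higher (35). The number higher was 37 for 3 h over 1 h (48), 126 for 8 h over 3 h (116) and 71 for 24 h over 8 h (59). The share of calls that were higher moved to 62.9% for sham against Pre (49.4%), 70.1% for 3 h against Pre (55.0%) and 45.7% for 8 h over 3 h (56.6%). No paired analysis was possible because each group had 1 array and no replicate numbers. With no signal values, how bright the member spots were is unknown, and each array's own deviation cannot be told apart from its group.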

Other observations

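Probes without a gene symbol were looked at for values like those of Ankrd1. Of 6979 such probes, 5971 were measured at 24 h and 224 of them stood at least 2-fold above Pre. Only 1 stood at or above the lower Ankrd1 EST probe, with a log2 ratio of 4.02. Hspb7, the small heat shock protein gene near probe 8722 in profile, was also divided by probe at 24 h. Its probes 615, 1207, 8699 and 11920 had log2 ratios to Pre of 2.95, 2.96, 3.07 and 3.01, while probe 2021 had 0.01. On those 4 probes sham already lay above Pre, at 1.00, 0.69, 0.93 and 1.26, unlike the Ankrd1 EST probes, on which sham lay at -0.41 and -0.16.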
